A study of Mus musculus with 31 samples.

Results

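The 8 genes described here, Lrp2, Cubn, Amn, Fcgrt, Dab2, Clcn5, Ocrl and Ehd1, encode the receptors of the kidney proximal tubule that retrieve filtered protein and the machinery that carries them through endosomes. They were chosen by symbol for their part in this pathway, with earlier results of these data known, and all 8 were found among the 23509 genes counted. All 8 also passed the filter on low counts, which 15185 genes passed. Kidney RNA was sequenced from 31 mice, all harvested at 30 weeks of age. The polycystic mice, male per the study, were of the Pcy/CD1 strain, which carries the pcy mutation. They received either PBS (n = 12) or 25 mg per kg of RGLS4326 (n = 14) for 25 weeks from 5 weeks of age. RGLS4326, a short anti-miR-17 oligonucleotide, was given monthly, whereas the sample characteristics give weekly PBS. Untreated wild-type (WT) male CD1 mice (n = 5) carried no pcy mutation, so that mutation, strain and injection cannot be told apart in comparisons with WT. Each library came from whole kidney, and fewer cells of a type cannot be told apart from less RNA per cell.

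In the proximal tubule, megalin (Lrp2) and cubilin (Cubn) bind filtered albumin, vitamin carriers and hormones at the brush border. Cubilin has no membrane anchor of its own and reaches the surface only with amnionless (Amn), and the adaptor Dab2 couples the receptors to clathrin. Endosomes then acidify, ligands are released, and receptors return to the surface. Loss of Clcn5 or OCRL function in people causes tubular proteinuria, in Dent disease and Lowe syndrome. The miR-17 family is known for promoting cyst growth in polycystic kidneys.

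The agent targets miR-17, so its sequence is shown with the places in these genes that pair with its seed. The mature mouse miR-17-5p (RefSeq, GRCm38.p6, chr14:115043684-115043706, plus strand) is written with the seed, bases 2 to 8, in capitals.
miR-17-5p: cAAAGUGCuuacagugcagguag
miR-20a-5p: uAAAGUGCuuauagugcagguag
miR-106b-5p: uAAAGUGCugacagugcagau
The 3 sequences share that seed and differ outside it. The longest annotated 3′UTR (GENCODE vM21, GRCm38) of each gene was searched for GCACTTT, the reverse complement of the seed, on the transcript strand. Dab2, Clcn5 and Ocrl each held 1 match, in the last exon, and Lrp2, Cubn, Amn, Fcgrt and Ehd1 held none. Among 13832 tested genes with a 3′UTR, 14% held such a match. That share takes no account of length. Dab2, Clcn5 and Ocrl had the longest 3′UTRs of the 8 (1936, 5919 and 2284 bases), and the median over those tested genes was 1145 bases. Each site is printed with its match in capitals, the positions being those of the match.
Dab2 site, chr15:6440650-6440656, plus strand, exon 14 of 14: gtcttcttgtGCACTTTtctgtatgca
Clcn5 site, chrX:7154014-7154020, minus strand, exon 12 of 12: tgaatggaaaGCACTTTtgacaagtaa
Ocrl site, chrX:47963996-47964002, plus strand, exon 24 of 24: tttgtatgatGCACTTTggacccaccc
A seed match is a description of the letters and not a measured target, and mature miR-17 was not measured by these mRNA libraries.

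Counts on genes ranged from 14892524 to 27459962 per mouse, and each member was read by at least 320 counts in every mouse. The spread that counting alone gives was below the spread between mice for 7 of the 8 genes in every group. The exception was Ocrl, for which counting gave a CV of 3.77% in WT, where the mice differed by 3.12%. Expression is given as CPM, the deposited counts scaled to library size with TMM factors. Markers of proximal tubule, thick limb and distal tubule, collecting duct, glomerulus, endothelium, macrophages and fibroblasts were all detected, with none at 0 in any mouse. WT mice 3 and 4 were the closest pair of libraries (mean chi-square per gene 2.56). The other WT pairs ran from 15.1 to 21.04, and the next closest pair, PBS mice 7 and 8, stood at 4.675. WT mice 3 and 4 were kept as 2 mice, though a value above sampling noise does not show whether they are separate animals. RGLS4326 mouse 9 stood apart from the other Pcy/CD1 mice, with a correlation of 0.993 to the WT mean across genes against 0.927 to 0.982, and values of the treatment comparison are also given without it. Library names fell into 3 runs of sheet numbers, called index series here. What these series stand for is not given in the sources used here, and they were treated as possible technical batches.

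All 8 genes read lower in PBS-treated Pcy/CD1 kidneys than in WT, and 5 of them, Lrp2, Cubn, Amn, Dab2 and Clcn5, passed both an adjusted p under 0.05 and a log2 fold change over 0.5 in size (edgeR's quasi-likelihood test, Benjamini-Hochberg adjustment over all genes tested). That rule called 17.8% of all genes tested lower. All 8 passed the adjusted p alone, as did 36.6% of all genes in the lower direction. The median log2 fold change was −0.73 over the 8 genes and 0.01 over all genes. With RGLS4326, none of the 8 passed both criteria against PBS, which 2.15% of all genes did in either direction. Cubn, Dab2 and Ehd1 passed the adjusted p alone and were higher, at 1.30, 1.19 and 1.116 times the PBS level, as 9.15% of all genes did in the higher direction. Of these, only Dab2 still passed when RGLS4326 mouse 9 was left out.

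**Figure D1:**
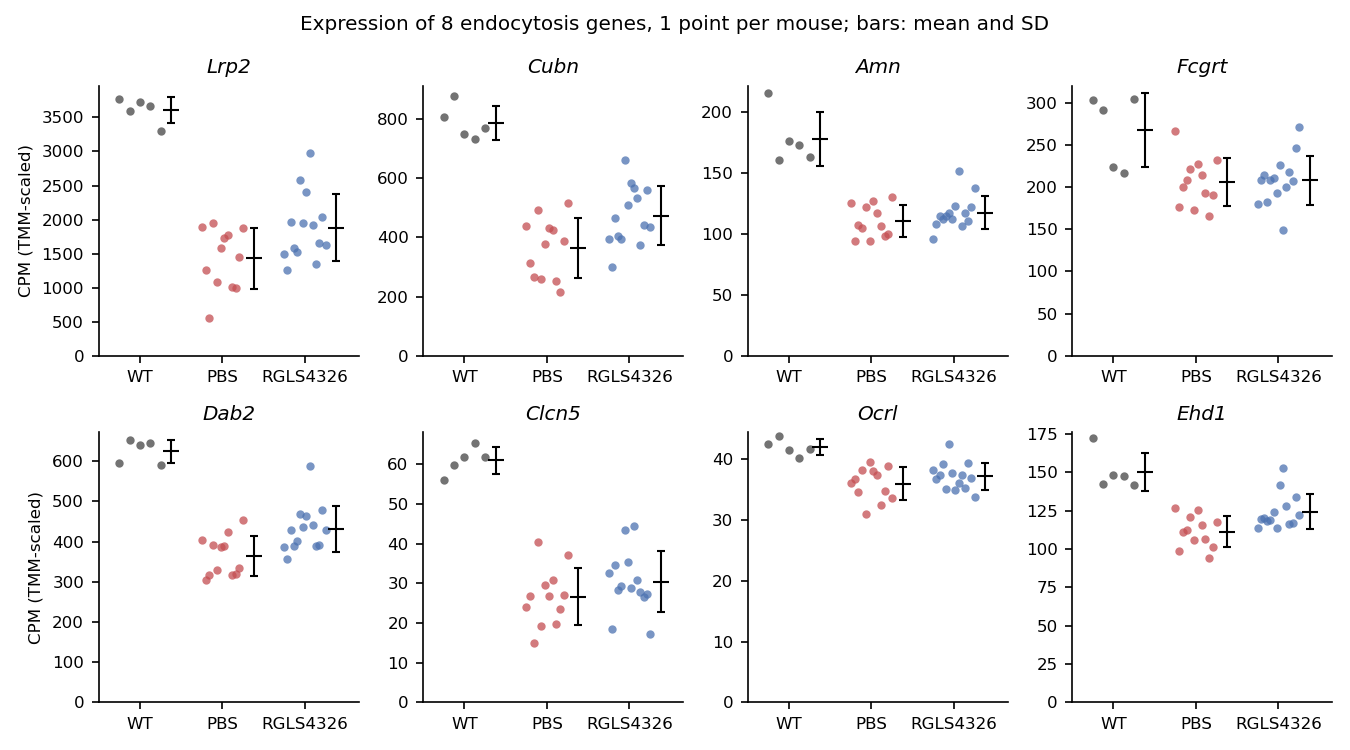
CPM of each gene (vertical axis, linear from 0) in every mouse of the 3 groups, 1 point per mouse, with the mean and SD of the group at its right. For Lrp2, Cubn, Amn, Dab2 and Clcn5 every WT point lies above every PBS and RGLS4326 point, while the PBS and RGLS4326 points overlap for all 8 genes.

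Lrp2 encodes megalin, a very large receptor of the LDL receptor family, and lies on the minus strand at chr2:69424340-69586065. Lrp2 read 3771, 3589.9, 3731, 3660.1 and 3295 CPM in WT mice 1 to 5. The PBS mice ran from 559 CPM in mouse 3 to 1945 CPM in mouse 4, with a median of 1521 CPM. The RGLS4326 mice ran from 1257 CPM in mouse 2 to 2982 CPM in mouse 9, with a median of 1791 CPM. No Pcy/CD1 mouse reached the WT range, and 6 of 14 RGLS4326 mice lay above the highest PBS mouse. PBS against WT gave a log2 fold change of −1.34 (SE 0.20, adjusted p = 6.5e-07), so that Lrp2 fell to 0.396 of the WT level. RGLS4326 against PBS gave 0.40 (SE 0.15, adjusted p = 0.0666), which did not pass. Without RGLS4326 mouse 9 the value was 0.33 (adjusted p = 0.124), whereas without any 1 of PBS mice 1, 4 and 12 or RGLS4326 mouse 2 it was 0.43 to 0.44 with an adjusted p of 0.037 to 0.0463.

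Cubn encodes cubilin, the peripheral membrane receptor that binds albumin and the intrinsic factor-vitamin B12 complex, and lies on the minus strand at chr2:13276338-13491813. Cubn read 806, 877, 749, 732 and 768 CPM in WT. PBS mice ran from 215 to 515 CPM (median 382) and RGLS4326 mice from 300.4 CPM in mouse 2 to 661 CPM in mouse 6 (median 454). The lowest WT mouse lay above every Pcy/CD1 mouse, and 5 RGLS4326 mice lay above the highest PBS mouse. The log2 fold change was −1.11 (SE 0.16, adjusted p = 6.39e-07) for PBS against WT and 0.38 (SE 0.13, adjusted p = 0.0421) for RGLS4326 against PBS. The second call was close to the threshold. It was lost, with an adjusted p of 0.0524 to 0.0859, when any 1 of 13 mice was left out: PBS mice 2, 3, 5, 9, 10 and 11 and RGLS4326 mice 3, 6, 7, 8, 9, 10 and 13. Other fits lost it too, such as those with the index series as covariate (0.37, adjusted p = 0.0508) or without the filter on low counts (adjusted p = 0.0526). With only PBS and RGLS4326 mice in the fit, the adjusted p was 0.0639.

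Megalin and cubilin transcripts varied together from kidney to kidney, as many other genes did with each of them. After subtraction of the group means, over all 31 mice, Cubn ranked 87th of all genes tested by its correlation with Lrp2 (r = 0.864), and Lrp2 ranked 315th by its correlation with Cubn. The ratio of Lrp2 to Cubn CPM was 4.61 ± 0.41 (SD, n = 5) in WT, 3.92 ± 0.63 in PBS mice (SD, n = 12) and 3.96 ± 0.42 in RGLS4326 mice (SD, n = 14). PBS mouse 3 held the lowest ratio, 2.09, and the other PBS mice lay between 3.66 and 4.63. That mouse had the lowest Lrp2 of all 31, yet its Cubn, 267 CPM, was above that of PBS mice 5, 9 and 10. RGLS4326 mouse 9 held the highest ratio, 5.27. The windows before the starts of these genes differ in base composition. Both are shown to set the upstream letters of the receptors side by side. Each is the 250 bases before the RefSeq start, 5′ to 3′ on the gene's strand (GRCm38.p6), with GC boxes (GGGCGG, either strand) in capitals.
Lrp2, chr2:69586030-69586279, minus strand: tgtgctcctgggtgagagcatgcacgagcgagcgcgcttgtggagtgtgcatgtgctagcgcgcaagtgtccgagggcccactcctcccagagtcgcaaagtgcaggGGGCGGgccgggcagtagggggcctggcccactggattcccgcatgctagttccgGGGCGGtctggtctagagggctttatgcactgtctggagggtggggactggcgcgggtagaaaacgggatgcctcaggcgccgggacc
Cubn, chr2:13491877-13492126, minus strand: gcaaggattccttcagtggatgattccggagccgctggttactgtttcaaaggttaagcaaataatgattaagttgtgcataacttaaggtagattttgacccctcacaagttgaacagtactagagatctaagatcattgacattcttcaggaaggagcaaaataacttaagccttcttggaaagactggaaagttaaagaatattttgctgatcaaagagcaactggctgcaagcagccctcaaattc
The Lrp2 window was 66.4% GC with 2 GC boxes, at −143 and −88 from the start, and the Cubn window was 39.6% GC with none. Over all 32851 promoters in the table, the median was 52.4% GC, and 32.7% of windows held a GC box on either strand. GTTAAT, part of the site bound by the hepatocyte nuclear factor HNF1, was found in neither window and in 6.43% of all promoters. Ehd1 had no entry in the table.

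Amn encodes amnionless, the membrane partner of cubilin, at chr12:111271095-111276426 on the plus strand. Amn read 215, 160.2, 176, 173 and 163 CPM in WT mice 1 to 5. PBS mice ran from 94.4 to 130.0 CPM (median 107) and RGLS4326 mice from 95.4 CPM in mouse 1 to 152 CPM in mouse 9 (median 115). WT stood above all Pcy/CD1 mice, and the Pcy/CD1 groups overlapped over most of their ranges. The log2 fold change was −0.68 (SE 0.08, adjusted p = 5.2e-08) for PBS against WT and 0.09 (SE 0.06, adjusted p = 0.326) for RGLS4326 against PBS, or 0.054 without mouse 9. Cubn stood at 4.49 ± 0.65 times Amn in WT mice (SD, n = 5), 3.29 ± 0.83 times in PBS mice (n = 12) and 4.04 ± 0.80 times in RGLS4326 mice (n = 14), with overlapping ranges in all 3 groups.

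Fcgrt encodes the heavy chain of the neonatal Fc receptor, which returns albumin and IgG from endosomes to the cell surface, and lies at chr7:45092990-45103851 on the minus strand. Many cell types besides proximal tubule express it. Fcgrt read 303, 292, 224, 217 and 304 CPM in WT, the pair WT 3 and WT 4 being the low ones. PBS mice ran from 166 to 266 CPM (median 204) and RGLS4326 mice from 149 to 271 CPM (median 208). The Pcy/CD1 ranges overlapped each other almost fully and reached into the WT range. PBS against WT gave −0.38 (SE 0.11, adjusted p = 0.00184), and RGLS4326 against PBS gave 0.02 (SE 0.08, adjusted p = 0.894). Within index series 2 alone the first value was −0.067 and did not pass (adjusted p = 0.691). The sign of the second turned with upper quartile scaling (−0.01), and without RGLS4326 mouse 9 it was 0.048. RGLS4326 mouse 9, highest of its group for Lrp2, Amn, Dab2, Clcn5 and Ehd1, was the lowest of all 31 mice for Fcgrt, at 149 CPM. B2m, the light chain that pairs with Fcgrt, was higher with PBS than in WT by 0.66 (SE 0.12, adjusted p = 7.7e-06), opposite to Fcgrt.

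Dab2, at chr15:6299788-6440712 on the plus strand, encodes the adaptor that binds the cytoplasmic tail of megalin. Dab2 read 596, 651, 641, 644 and 589.8 CPM in WT. PBS mice ran from 304 to 454 CPM (median 359.6) and RGLS4326 mice from 358 CPM in mouse 2 to 588 CPM in mouse 9 (median 429). Only mouse 9 came within 2 CPM of the lowest WT mouse, and the next RGLS4326 mouse read 479 CPM. The log2 fold change was −0.78 (SE 0.09, adjusted p = 2.2e-08) for PBS against WT and 0.25 (SE 0.07, adjusted p = 0.0235) for RGLS4326 against PBS. The second call held in 25 of the 26 fits that left out 1 mouse, without mouse 9 too (0.21, adjusted p = 0.037), and was lost without PBS mouse 10 (0.23, adjusted p = 0.0529). Lrp2 stood at 5.79 ± 0.33 times Dab2 in WT (SD, n = 5), 3.87 ± 0.88 times with PBS (n = 12) and 4.30 ± 0.63 times with RGLS4326 (n = 14). The WT ratios, from 5.51 upward, lay above all 12 PBS ratios, and RGLS4326 mouse 6, at 5.52, was the one treated mouse among them.

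Clcn5, at chrX:7153810-7319358 on the minus strand, encodes the endosomal chloride-proton exchanger. It was one of the lowest of the 8, at 56.0, 59.9, 61.9, 65.5 and 61.8 CPM in WT. PBS mice ran from 15.03 CPM in mouse 3 to 40.4 CPM in mouse 4 (median 26.8), and RGLS4326 mice from 17.3 CPM in mouse 14 to 44.5 CPM in mouse 9 (median 29.0). PBS mouse 3 thus held the lowest Clcn5 as well as the lowest Lrp2, and no Pcy/CD1 mouse reached WT. The log2 fold change was −1.19 (SE 0.17, adjusted p = 4.8e-07) for PBS against WT. For RGLS4326 against PBS it was 0.19 (SE 0.13, adjusted p = 0.304), or 0.14 without mouse 9.

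Ocrl, at chrX:47912387-47965868 on the plus strand, encodes an inositol phosphatase of early endosomes and clathrin-coated pits. It had the smallest spread of the 8 in each group, with 42.6, 43.8, 41.5, 40.3 and 41.7 CPM in WT, 31 to 39.5 CPM (median 36.5) with PBS and 33.8 to 42.4 CPM (median 37.2) with RGLS4326. All 12 PBS mice lay just below the WT range, and 1 of 14 RGLS4326 mice lay inside it. PBS against WT gave −0.22 (SE 0.05, adjusted p = 0.000252), a fall of 14.3%. It did not pass with upper quartile scaling (−0.10, adjusted p = 0.069), within index series 1 alone (−0.24, adjusted p = 0.0539) or within series 2 alone (−0.15, adjusted p = 0.307). RGLS4326 against PBS gave 0.05 (SE 0.04, adjusted p = 0.347), with 0.030 to 0.062 when 1 mouse was left out, the lowest without PBS mouse 5, and 0.020 with upper quartile scaling. It passed in none of these fits.

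Ehd1, at chr19:6276725-6300096 on the plus strand, encodes a membrane-shaping ATPase of recycling endosomes. Ehd1 read 172, 143, 148, 148 and 141 CPM in WT. PBS mice ran from 94.3 to 126 CPM (median 112) and RGLS4326 mice from 113 CPM in mouse 7 to 153 CPM in mouse 9 (median 119.8). All PBS mice lay below WT, whereas RGLS4326 mice 8 and 9 reached into the WT range. The log2 fold change was −0.43 (SE 0.07, adjusted p = 1.4e-06) for PBS against WT and 0.16 (SE 0.05, adjusted p = 0.0373) for RGLS4326 against PBS. The second did not pass with upper quartile scaling (0.13, adjusted p = 0.0519). Nor did it pass when any 1 of PBS mice 2, 3, 5, 9, 10 and 11 or RGLS4326 mice 6, 8, 9, 10 and 13 was left out (0.13 to 0.17, adjusted p = 0.0504 to 0.0803).

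**Figure D2:**
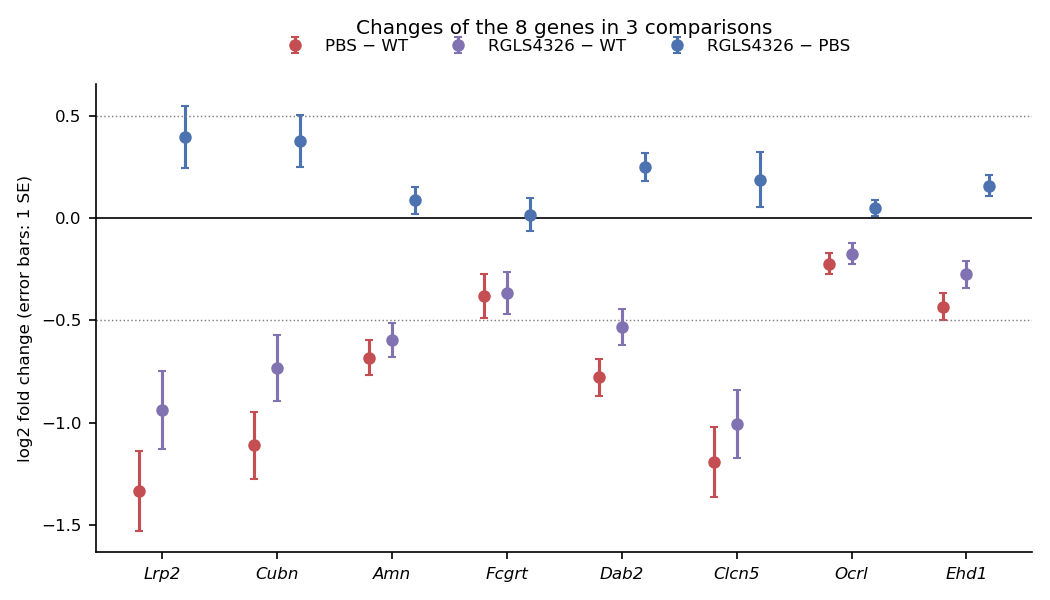
Log2 fold changes with 1 SE of the 8 genes in PBS against WT, RGLS4326 against WT and RGLS4326 against PBS, with dotted lines at the fold change threshold of 0.5. Both comparisons with WT lie below 0 for every gene, from −1.34 to −0.17, and the treatment comparison lies between 0.02 and 0.40.

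The CPM ranges of PBS and WT did not overlap for 7 of the 8 genes, all but Fcgrt, all in the lower direction, which 21.9% of all genes tested showed. RGLS4326 and WT ranges did not overlap for Lrp2, Cubn, Amn, Dab2 and Clcn5, against 9.75% of all genes in the lower direction. Against WT the treated mice read lower by log2 fold changes of −0.94 (SE 0.19) for Lrp2, −0.73 (SE 0.16) for Cubn, −0.60 (SE 0.08) for Amn, −0.53 (SE 0.09) for Dab2 and −1.01 (SE 0.17) for Clcn5. Those 5 passed both criteria, which 11.3% of all genes did in the lower direction, and all 5 still did without RGLS4326 mouse 9 (−1.055 to −0.57). Within index series 2 alone (5 treated and 2 WT mice) none of the 8 passed, where only 0.114% of all genes passed in the lower direction. The same 5 genes stood there at −0.43 to −0.79 with an adjusted p of 0.0891 to 0.148. Within series 1 alone (4 treated and 2 WT mice) 6 passed both criteria, against 13% of all genes in the lower direction in that fit. Ocrl, Fcgrt and Ehd1 passed the adjusted p alone, at −0.17, −0.36 and −0.28 (−0.17, −0.33 and −0.30 without mouse 9), as 32.4% of all genes did in the lower direction. RGLS4326 and PBS are each compared here with the same 5 WT mice, so that the comparisons with WT are not independent. With upper quartile scaling Dab2 stood at −0.44, within the threshold, and Ocrl, at −0.08, no longer passed the adjusted p (0.145).

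The treatment comparison was small throughout. All 8 fitted values were positive, from 0.02 for Fcgrt to 0.40 for Lrp2, the sign of Fcgrt turning with upper quartile scaling. The count passing both criteria was 0 of 8 with edgeR, against 2.15% of all genes, and 0 of 8 with DESeq2, which called 385 genes. At an unadjusted p under 0.05, 4 of 8 passed (Lrp2, Cubn, Dab2 and Ehd1), against 36.8% of all genes. At the adjusted p alone, 3 of 8 were higher, against 9.15% of all genes. Without RGLS4326 mouse 9 only Dab2 passed it, against 4.66% of all genes in the higher direction. The 3 genes with a seed match had values of 0.25 (Dab2), 0.19 (Clcn5) and 0.05 (Ocrl), and the 5 without ran from 0.02 to 0.40. Within index series, Lrp2 was higher in treated than in PBS mice by 0.29, 0.56 and 0.40 (difference of mean log2(CPM + 1)), Cubn by 0.08 to 0.55, Dab2 by 0.15 to 0.30 and Ehd1 by 0.08 to 0.23. Series 2, which gave the 0.56 and the 0.55, holds RGLS4326 mouse 9, and no within-series value is given without it. The edgeR fits of series 1, 2 and 3 alone gave 0.16, 0.57 and 0.37 for Lrp2 and 0.05, 0.54 and 0.46 for Cubn. Amn, Clcn5 and Fcgrt changed sign between series. No member passed the adjusted p in any series alone, where 4 or 5 mice stood in each group. In each of those fits 0 of all genes passed both criteria. Against WT, within-series differences of the PBS mice were lower for all 8 genes in all 3 series, from −1.54 to −1.29 for Lrp2 and −0.65 to −0.08 for Fcgrt. Series 3 held a single WT mouse, on which the −0.65 rests.

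Proximal tubule markers moved with these genes. All 22 markers of the list passed the adjusted p in the lower direction in PBS against WT, with a median log2 fold change of −1.18, against 36.6% of all genes. With RGLS4326 against PBS, 8 of 22 were higher and none lower, with a median of 0.35, against 9.15% of all genes higher. Without RGLS4326 mouse 9 these were 3 of 22, with a median of 0.29, against 4.66% of all genes. Slc22a6, an organic anion transporter of the basolateral membrane, fell by 1.25 on the log2 scale (SE 0.13) and was 0.35 higher with treatment (adjusted p = 0.0272), or 0.29 without mouse 9 (adjusted p = 0.0457). Hnf4a, a transcription factor of the proximal tubule, fell by 0.84 (SE 0.12) and was 0.35 higher with treatment (adjusted p = 0.0213), or 0.30 without mouse 9 (adjusted p = 0.0354). The summed markers read 36830 to 41310 CPM in WT, 11230 to 21640 CPM with PBS and 15200 to 36390 CPM with RGLS4326, the highest being 25890 CPM without mouse 9. A proximal tubule score, the mean log2(CPM + 1) of the 22 markers, was 9.83 ± 0.03 in WT (SD, n = 5), 8.58 ± 0.35 with PBS (n = 12) and 8.94 ± 0.32 with RGLS4326 (n = 14), or 8.88 ± 0.24 without mouse 9 (n = 13).

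Most markers of collecting duct, macrophages, fibroblasts, tubular injury and podocytes were higher with PBS than in WT, where 37.7% of all genes were higher and 36.6% lower at the adjusted p alone. In PBS against WT all 7 collecting duct markers were higher (median 1.55), with Avpr2, the vasopressin receptor, at 1.92 (SE 0.14). All 10 macrophage markers were higher (median 2.37), 6 of 7 fibroblast markers (median 1.28), all 8 tubular injury markers (median 3.0) and 4 of 7 podocyte markers (median 0.47). Endothelial markers were higher for 1 and lower for 3 of 7 (median −0.33), and thick limb and distal tubule markers higher for 1 and lower for 4 of 7 (median −0.53), with Pvalb, a calcium-binding protein of the distal convoluted tubule, at −3.83 (SE 0.50). With RGLS4326 against PBS, where 6.66% of all genes were lower, 6 of 7 collecting duct markers were lower (median −0.39), 2 of 7 thick limb and distal markers were higher, and no macrophage, fibroblast, injury, podocyte or endothelial marker passed. Without RGLS4326 mouse 9 the collecting duct count was again 6 of 7, no thick limb and distal marker passed, and 1 macrophage marker was higher (Emr1, 0.53, adjusted p = 0.0329). Summed macrophage markers read 358 to 455 CPM in WT, 1353 to 2813 CPM with PBS and 379 to 2753 CPM with RGLS4326, the lowest being 955 CPM without mouse 9. Summed collecting duct markers read 551 to 915 CPM in WT, 1587 to 3241 CPM with PBS and 864 to 2279 CPM with RGLS4326, the lowest being 1473 CPM without mouse 9. The part of these other cells in the lower values of the 8 genes was not tested.

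The 8 genes were then tested per unit of proximal tubule marker expression. In this fit each mouse's offset was raised by its score, so that a value of 0 means a change equal to that of the score, for which PBS minus WT was −1.25. The median over all genes on this scale was 1.29. Lrp2 (−0.14, SE 0.11, adjusted p = 0.221), Cubn (0.10, SE 0.10, adjusted p = 0.336) and Clcn5 (0.04, SE 0.16, adjusted p = 0.829) did not pass the adjusted p, which 94.5% of all genes did. Dab2 (0.47, SE 0.09), Amn (0.58, SE 0.14), Ehd1 (0.83, SE 0.13), Fcgrt (0.88, SE 0.17) and Ocrl (1.05, SE 0.16) were higher per marker. Of the 8, Amn, Ehd1, Fcgrt and Ocrl passed both criteria, against 89.7% of all genes in the higher direction. With a score of the 8 markers that are not solute carriers, Lrp2 stood at −0.31 and passed the adjusted p (0.0165), and Cubn (−0.08) and Clcn5 (−0.13) changed sign without passing. On that scale Amn (0.40) no longer passed both criteria and Dab2 stood at 0.29, whereas Dab2 passed both with the score of solute carriers alone (0.57).

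**Figure D3:**
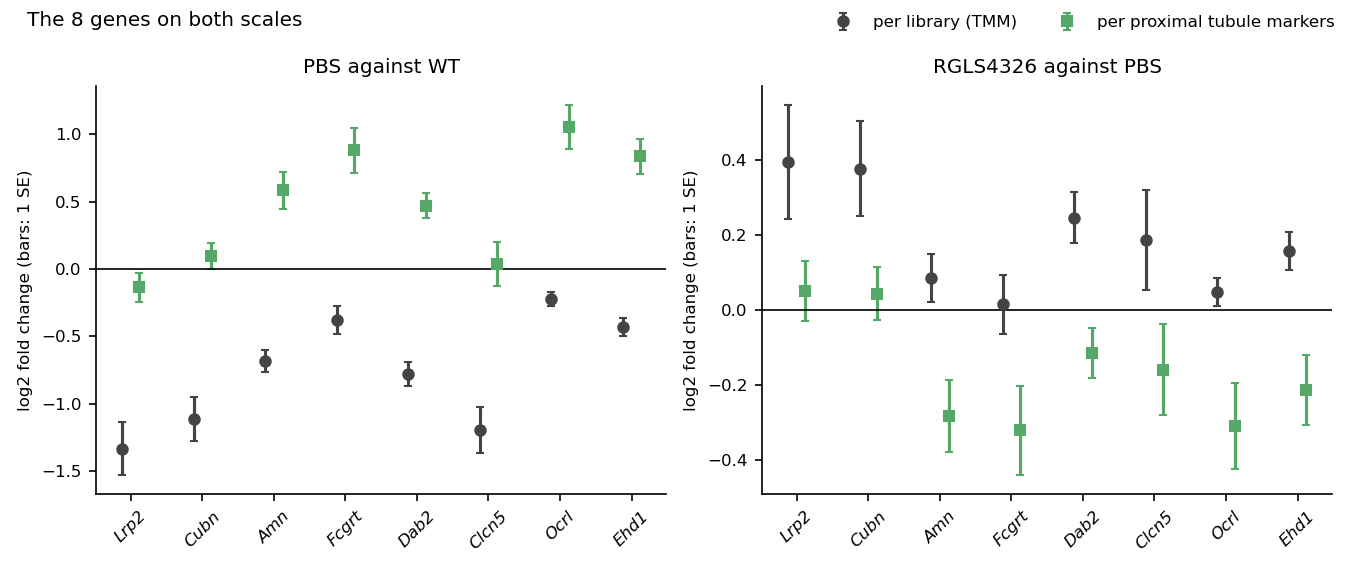
Log2 fold changes with 1 SE of the 8 genes per library (circles) and per proximal tubule marker (squares), for PBS against WT and RGLS4326 against PBS. On the marker scale Lrp2, Cubn and Clcn5 lie near 0 in PBS against WT and Ocrl reaches 1.05.

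For RGLS4326 against PBS on the same scale, Lrp2 (0.05, SE 0.08), Cubn (0.04, SE 0.07), Dab2 (−0.11, SE 0.07) and Clcn5 (−0.16, SE 0.12) did not pass the adjusted p. Amn (−0.28, adjusted p = 0.0162), Ocrl (−0.31, adjusted p = 0.0218), Fcgrt (−0.32, adjusted p = 0.022) and Ehd1 (−0.21, adjusted p = 0.0428) were lower per marker. None of the 8 passed both criteria. Of all genes, 68.6% were lower at the adjusted p alone and 23.1% by both criteria, and the median over all genes was −0.37. The Ehd1 value no longer passed without RGLS4326 mouse 9 (−0.18, adjusted p = 0.0708) or with the score of markers that are not solute carriers (−0.18, adjusted p = 0.0625).

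Between mice of 1 group, Lrp2, Cubn and Dab2 followed the proximal tubule score, and Ocrl did not pass in either group. The score and the genes come from the same libraries and share their scaling. Correlations of log2(CPM + 1) with the score were computed within PBS (n = 12) and within RGLS4326 (n = 14), 16 relations in all, with permutation p-values adjusted over the 16. No correlation was computed within WT or within a single index series, which hold at most 5 mice of a group. For Lrp2, r was 0.825 in PBS (p = 0.00035, adjusted 0.000933; rho 0.86, p = 0.00058, adjusted 0.00133) and 0.922 in RGLS4326 (p = 1e-05, adjusted 5.3e-05; rho 0.899, p = 5e-05, adjusted 0.000256). Without the 2 mice farthest from the median score, r was 0.801 and 0.869. For Dab2, r was 0.941 in PBS (p = 1e-05; rho 0.916, p = 8e-05) and 0.957 in RGLS4326 (p = 1e-05; rho 0.895, p = 7e-05), and 0.935 and 0.909 without those 2 mice. A p of 1e-05 is the smallest that the 100000 permutations can give. For Cubn, r was 0.934 (p = 5e-05; rho 0.923, p = 6e-05) and 0.804 (p = 0.00048; rho 0.899, p = 5e-05), and 0.915 and 0.876 without those 2 mice. In RGLS4326 the 2 mice left out were 2 and 9, and in PBS 9 and 10.

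**Figure D4:**
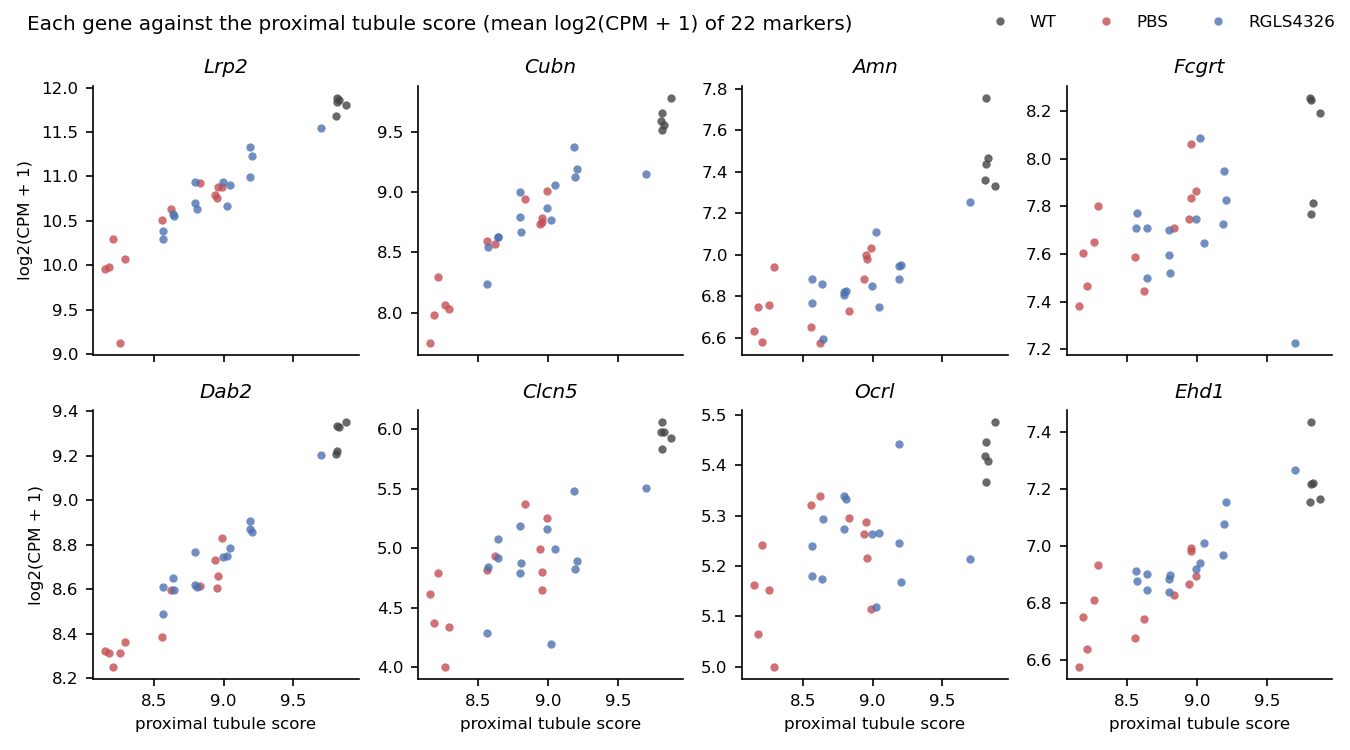
Log2(CPM + 1) of each gene against the proximal tubule score, 1 point per mouse, coloured by group. PBS scores run from 8.15 to 8.99 with a gap between 8.29 and 8.56, WT scores lie between 9.81 and 9.88, and RGLS4326 mouse 9, at 9.70, lies nearest to WT.

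In all, 11 of the 16 relations passed an adjusted p under 0.05 by Pearson's r, and 7 passed without the 2 farthest mice. With the mean of each index series subtracted and values permuted within series, an alternative chosen after seeing the data, 9 of the 16 relations passed, Lrp2, Cubn and Dab2 in both groups among them (r = 0.746 to 0.959), and Fcgrt (r = 0.681, adjusted p = 0.0564) and Ehd1 (r = 0.645, adjusted p = 0.0782) in PBS no longer did. Following the score was common among all genes. The lowest r that passed was 0.673 in PBS and 0.735 in RGLS4326, and of the 15163 tested genes outside the score 17.7% and 12.8% had an r at least that high. By the same measure 9.03% of genes in PBS and 1.73% in RGLS4326 had an r at least that of Lrp2, 2.26% and 8.44% that of Cubn, and 1.89% and 0.429% that of Dab2. The 4 that no longer passed with 2 mice fewer were Clcn5 (r = 0.673 to 0.647, adjusted p = 0.027 to 0.0857), Fcgrt (0.684 to 0.604, adjusted p = 0.027 to 0.12) and Ehd1 (0.675 to 0.575, adjusted p = 0.0281 to 0.127) in PBS and Amn (0.735 to 0.471, adjusted p = 0.0068 to 0.15) in RGLS4326. Ehd1 in RGLS4326 kept an r of 0.819. Fcgrt in RGLS4326 had an r of −0.193 (permutation p = 0.501) that became 0.496 without mice 2 and 9, and Ocrl stood at 0.00 there (permutation p = 0.994). PBS scores left a gap between 5 mice at 8.15 to 8.29 and 7 mice at 8.56 to 8.99, and whether the relations held on either side of it was not tested.

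Against Lrp2 itself, 7 of 14 relations passed (adjusted over the 14), 3 in PBS and 4 in RGLS4326. The lowest r that passed was 0.778 in PBS and 0.694 in RGLS4326, and 6.15% and 16.6% of the other 15184 genes tested had an r at least that high. Cubn had the highest rho in both groups, with r of 0.844 in PBS (permutation p = 0.00037; rho 0.923) and 0.923 in RGLS4326 (p = 1e-05; rho 0.969), and 0.981 and 0.959 without the 2 mice farthest in Lrp2. In PBS those were mice 3 and 10. By Pearson's r over all mice Clcn5 stood above Cubn in PBS (0.866), and Dab2 was level with it in RGLS4326 (0.923) and at 0.778 in PBS. Clcn5 in RGLS4326 had an r of 0.694, falling to 0.444 (adjusted p = 0.27) without RGLS4326 mice 6 and 9 and to 0.583 (adjusted p = 0.0738) with series means subtracted, where the other 6 still passed. Ehd1 passed in RGLS4326 (r = 0.762, adjusted p = 0.00414) and not in PBS (r = 0.371, adjusted p = 0.301), and the difference between the groups was not tested. Amn, Ocrl and Fcgrt passed in neither group.

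Over all 31 mice, after subtraction of the group means, the genes most like each member in log2(CPM + 1) were sought among all genes tested. These r are descriptions over mice that share libraries. For Lrp2 they were Klf15 (r = 0.924) and Fmo2 (0.918), and for Cubn they were Dpyd (0.972) and Aldh6a1 (0.951), enzymes of pyrimidine and branched-chain amino acid breakdown. For Dab2 they were Fmo1 (0.943), a flavin monooxygenase, and Tcn2 (0.940), which carries vitamin B12 to its receptors. Clcn5 was most like Uhmk1 (0.945) and Tnpo1 (0.942), Amn most like Atp5h (0.884) and Acaa1a (0.881), and Ehd1 most like Akr7a5 (0.886) and Flad1 (0.874). Fcgrt was most like Akip1 (0.901) and Hint2 (0.888), and Ocrl had the weakest matches, Otud4 (0.782) and Fam178a (0.777). Among the members, Lrp2 and Cubn stood at 0.864, and Amn and Ehd1 at 0.825, Ehd1 being 41st in likeness to Amn and Amn 66th in likeness to Ehd1. Amn stood further from its partner Cubn, at 0.367, than from Ehd1.

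Levels of different genes were compared as CPM per kilobase of annotated exon, which counts all exons of a gene whether or not the kidney uses them. In WT the order was Lrp2 (216 ± 11.3), Fcgrt (128 ± 20.8), Amn (96.2 ± 11.97), Dab2 (85.1 ± 3.99), Cubn (52.7 ± 3.85), Ehd1 (40.6 ± 3.36), Clcn5 (5.33 ± 0.30) and Ocrl (4.42 ± 0.14; SD, n = 5 for each). The WT ranges of Fcgrt and Amn overlapped, as did those of Amn and Dab2, and the other neighbours in this order did not overlap. With PBS the order changed: Fcgrt (97.9 ± 13.7) stood first and Lrp2 (85.7 ± 26.7) second, with overlapping ranges, and Ehd1 (30.1 ± 2.81) stood above Cubn (24.4 ± 6.73) and Ocrl (3.79 ± 0.28) above Clcn5 (2.33 ± 0.63; SD, n = 12 for each), both pairs again overlapping. With RGLS4326 Lrp2 was first at 113 ± 29.5 and Fcgrt second at 99 ± 13.9 (SD, n = 14), with overlapping ranges. Ehd1 (33.5 ± 3.06) again stood above Cubn (31.7 ± 6.64) and Ocrl (3.92 ± 0.24) above Clcn5 (2.653 ± 0.67; SD, n = 14 for each), with overlapping ranges in both pairs. Amn and Dab2, next in order in both Pcy/CD1 groups, read 60.0 and 49.6 per kilobase with PBS and 63.7 and 58.9 with RGLS4326.

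Close relatives of the members did not all move with them. Of the other EHD ATPases, Ehd2 was higher in PBS than in WT by 1.33 (SE 0.13) and Ehd4 by 0.68 (SE 0.09), while Ehd3 was lower by −0.73 (SE 0.13), as was Ehd1. With RGLS4326 against PBS, Ehd2 was lower at −0.36 (adjusted p = 0.0146) and Ehd4 at −0.18 (adjusted p = 0.0477), against 0.16 for Ehd1. The chloride-proton exchangers Clcn3 (−1.123, SE 0.13), Clcn4-2 (−0.52, SE 0.07) and Clcn7 (−0.34, SE 0.05) were all lower in PBS than in WT, and Clcn3 fell nearly as far as Clcn5. Clcn3 (0.30, adjusted p = 0.0469) and Clcn4-2 (0.16, adjusted p = 0.0373) were higher with treatment, and Clcn7 stood at 0.06 (adjusted p = 0.286). Without RGLS4326 mouse 9, Ehd2 (−0.33, adjusted p = 0.0246) still passed, and Ehd4 (−0.17, adjusted p = 0.0776), Clcn3 (0.24, adjusted p = 0.0847) and Clcn4-2 (0.14, adjusted p = 0.065) did not. Inpp5b, the closest relative of Ocrl, was lower in PBS than in WT by −0.77 (SE 0.10) and higher with treatment by 0.26 (adjusted p = 0.0258), or 0.23 without mouse 9 (adjusted p = 0.0439). Lrpap1, the chaperone that escorts megalin out of the endoplasmic reticulum, was lower by −0.77 (SE 0.10), with a treatment value of 0.19 (adjusted p = 0.0824).

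The wider endocytic route was described by 5 lists. Of 19 coat and adaptor genes, 12 were lower and 4 higher in PBS against WT at the adjusted p alone (median −0.26), against 36.6% lower and 37.7% higher of all genes. Myo6, the motor that moves coated vesicles inward, was at −0.57 (SE 0.07) and Picalm, a clathrin assembly protein, at −0.55 (SE 0.07), whereas Gipc1, which links receptors to Myo6, was at 0.49 (SE 0.07). Of 12 early endosome and phosphoinositide genes, 9 were lower and none higher (median −0.37). Among these were the GTPases Rab5a (−0.51, SE 0.07) and Rab5b (−0.34, SE 0.06) and the lipid kinase Pip5k1c (−0.45, SE 0.05). Of 16 recycling and sorting genes, 10 were lower and 3 higher (median −0.23), with the retromer subunit Vps26a at −0.49 (SE 0.06), the GTPase Rab10 at −0.47 (SE 0.06) and Ehd2 the highest. Of 16 acidification genes, 15 were lower and none higher (median −0.46), with the proton pump subunits Atp6v0a2 (−0.52, SE 0.06), Atp6v1h (−0.57, SE 0.07) and Atp6v1d (−0.47, SE 0.07). Of 14 receptor partners and other lipoprotein receptors, 8 were lower and 3 higher (median −0.31), with the vitamin B12 carrier Tcn2 at −1.29 (SE 0.15), Vldlr at −0.47 (SE 0.08) and B2m among the higher.

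**Figure D5:**
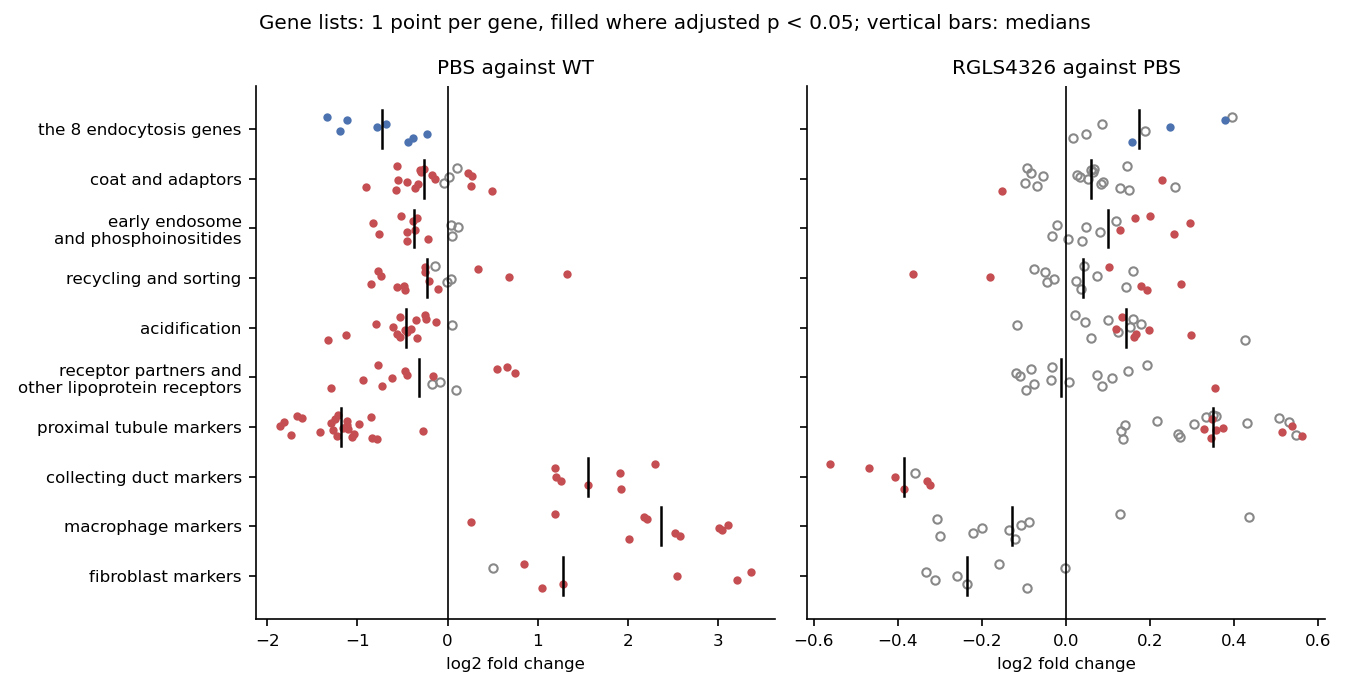
Log2 fold changes of single genes in the 8 members, the 5 endocytic lists and 4 marker lists, for PBS against WT and RGLS4326 against PBS, with filled points where the adjusted p was under 0.05 and bars at list medians. The members (median −0.73) lie between the endocytic lists (−0.46 to −0.23) and the proximal tubule markers (−1.18) in the left panel.

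Upper quartile scaling raised the median of all genes in PBS against WT by 0.12, so small falls depend on the scaling. On that scale 7 of the 8 members, 10 of 19 coat and adaptor genes, 8 of 12 early endosome genes, 8 of 16 recycling genes, 13 of 16 acidification genes and 7 of 14 receptor partners were lower, and 6, 3, 5, 1 and 4 of the 5 lists in that order were higher, against 28.6% lower and 46% higher of all genes on that scale. With treatment, 5 of 12 early endosome genes and 6 of 16 acidification genes were higher than with PBS and none lower at the adjusted p alone, against 9.15% higher and 6.66% lower of all genes. With upper quartile scaling these counts were 3 of 12, and 2 of 16 with 1 lower, against 6.62% higher and 9.07% lower of all genes. Recycling genes were higher for 4 and lower for 2 of 16, coat and adaptor genes higher for 1 (Picalm, 0.23, adjusted p = 0.0126) and lower for 1 (Gipc1, −0.15, adjusted p = 0.0455) of 19, and receptor partners higher for 1 of 14 (Tcn2, 0.35, adjusted p = 0.04). On the upper quartile scale recycling genes were higher for 3 and lower for 2, coat and adaptor genes higher for 1 and lower for 1, and receptor partners higher for 1 and lower for 2. No gene of the 5 lists passed both criteria with treatment. Without RGLS4326 mouse 9, 3 of 12 early endosome genes, 1 of 16 acidification genes, 3 of 16 recycling genes, 1 of 19 coat and adaptor genes and none of 14 receptor partners were higher, against 4.66% of all genes. At the same time 1 of 16 recycling genes and 1 of 14 receptor partners were lower, against 3.48% of all genes, and Gipc1 (adjusted p = 0.0769) and Tcn2 (adjusted p = 0.0705) no longer passed. In RGLS4326 against WT, 13, 9, 9, 13 and 8 genes of the 5 lists in the same order were lower and 4, 0, 3, 0 and 3 higher, against 32.4% lower and 32.5% higher of all genes.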

How the data were processed

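Stranded mRNA libraries of 31 kidneys were sequenced as paired reads. Per the labels and the study's methods, the authors trimmed reads with Trim Galore, aligned them with STAR to GRCm38 and counted them per gene with HTSeq 0.6.1. They deposited raw counts for 23509 genes per mouse, not normalized. Lines that name no gene (26.9% to 31.1% of each file's total) were left out. Genes passing edgeR's filterByExpr (15185) were scaled by TMM and tested in 1 quasi-likelihood model of all mice with 1 coefficient per group (edgeR 4.0.16, R 4.3.3). P-values were adjusted by Benjamini-Hochberg over all genes, and genes were called at an adjusted p under 0.05 and a log2 fold change over 0.5 in size, the study's thresholds. SEs were derived from the log2 fold change and its F statistic and are approximate. Counts totalled 14892524 to 27459962 per mouse.

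The members and lists were chosen with earlier results of these data known. Besides the members, the genes named are the 2 of each list with the smallest p in each of PBS against WT and RGLS4326 against PBS, fixed relatives and partners (Lrpap1 among them, written with a misspelt symbol in the rule) and the 2 genes most like each member; some genes under the rule are not reported here. Correlations used log2(CPM + 1) and two-sided permutation p-values (100000 resamples, Python 3.11.15, scipy 1.17.1). Sequences and loci came from RefSeq and GENCODE vM21. The promoter table held 7 of the 8 members. On simulated counts for 15185 genes, 198 of 200 changed genes and 5 unchanged genes were called. Same-numbered mice are different animals, so numbers were not used as pairs. Alternatives covered scaling, the filter, DESeq2 1.42.0, covariates, the mice in the fit, marker scores and pseudocounts.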

Additional observations from a re-analysis of the deposited data

Results flagged for a closer look

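Over the 8 genes and the proximal tubule score, the highest and lowest of the 5 WT mice were compared with the rest of their group, and 3 of the 9 measures held a mouse far from the others by Dixon's 95% criterion. Chance flags about 1 in 20 such groups, and the 9 measures are correlated. WT mouse 1 held the highest Amn, 215 CPM, against 160.2 to 176 CPM in the other 4 WT mice. The same mouse held the highest Ehd1, 172 CPM, against 141 to 148 CPM. WT mouse 2 held the highest proximal tubule score, 9.88, against 9.81 to 9.83. Without WT mouse 1, all 8 members still passed the adjusted p in PBS against WT. Groups of more than 10 mice were not examined this way.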

How the results depend on the processing

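Per library, the direction of all 8 members against WT held under every alternative run, and the 5 calls of PBS against WT held under all of them. Ocrl (3 of 10 alternatives) and Fcgrt (1 of 10) lost the adjusted p in PBS against WT. Among the 10 was the main fit judged by the adjusted p alone, where that p could not change. At the adjusted p alone, 8, 3 and 8 members and 11281, 2402 and 9861 genes passed in PBS against WT, RGLS4326 against PBS and RGLS4326 against WT, where both criteria gave 5, 0 and 5 members and 6442, 327 and 4789 genes. The treatment count of 327 genes was 210 with only the groups compared in the fit, 0 within index series 1, 2 or 3 alone, and 78 to 574 when 1 mouse was left out. It moved by over 1.5 times without PBS mouse 2, 3, 4, 5, 9 or 10 or RGLS4326 mouse 2, 3, 6, 8, 9, 10 or 13. The cause was not tested. In RGLS4326 against WT within series 2 alone, 0 members and 61 genes were called; series 3 holds 1 WT mouse and was not tested against WT alone. Upper quartile scaling moved the share of calls that were higher from 58.1% to 68.6% in PBS against WT and from 43.4% to 32.1% in RGLS4326 against PBS.

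Cubn and Ehd1 passed the adjusted p with treatment under 4 and 5 of 11 alternatives other than leaving out a mouse, Dab2 under 7 and Lrp2 under 1 (DESeq2, adjusted p = 0.0443). Among the 11 was the main fit judged by the adjusted p alone, which Cubn, Ehd1 and Dab2 had to pass as in the main result. Fcgrt with treatment turned from 0.02 to −0.00970 with upper quartile scaling, −0.039 with the replicate block, −0.116 within series 1, −0.085 within series 2 and −0.017 to 0.057 when 1 mouse was left out, passing nowhere. Amn turned to −0.0048 within series 1 and Clcn5 to −0.050 within series 3. Per proximal tubule marker, Cubn (−0.076) and Clcn5 (−0.133) turned in PBS against WT with the score of markers other than solute carriers, where Lrp2 passed (−0.31, adjusted p = 0.0165) and Ehd1 with treatment did not (−0.18), and 3 to 5 members were called across alternatives, Amn losing its call with that score and Dab2 gaining one with the score of solute carriers.

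For the score, 11 relations passed, 7 without the 2 farthest mice and 9 with index series means subtracted. In RGLS4326, Ocrl turned from 0.0022 to −0.051 by Spearman and −0.000208 with a pseudocount of 5, and Fcgrt from −0.193 to 0.139 by Spearman and 0.496 without 2 mice. Against Lrp2, Fcgrt turned from −0.261 to 0.064 and 0.215 and Ocrl from 0.196 to −0.018 without 2 mice.

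Replicate numbers did not pair the mice: deviations of same-numbered PBS and RGLS4326 mice correlated at −0.085 on average (−0.47 to 0.506 over 12 pairs, 2 mice correlating best with their own number). With the number as a block, 43 genes were called in RGLS4326 against PBS and 0 per proximal tubule marker (3532 without it), Cubn, Dab2 and Ehd1 had adjusted p of 0.0916, 0.0699 and 0.0939, Amn, Ocrl, Fcgrt and Ehd1 per marker had 0.0728 to 0.147, and no member's call by both criteria changed except that of Dab2 per marker in PBS against WT (0.50).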
